A study of Mus musculus with 24 samples.

Results

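Immature megakaryocytes and monocytes are both blood cells, and this account sets their accessible chromatin side by side. Chromatin was assayed by ATAC-seq, in which the Tn5 transposase inserts sequencing adapters into DNA that is not covered by nucleosomes, so that stretches with many inserted reads (peaks) mark open promoters and other regulatory DNA. The comparison used the 2 peak lists titled iMK and the 2 titled MON, which are 4 of the 24 lists of the series. The whole series covers 12 populations with 2 libraries each, made of 10 primary populations of the blood system and 2 cell lines. The iMK cells came from the bone marrow of adult male C57BL6 mice and carry the label megakaryocyte. They were sorted as CD41+ and CD61+ cells that lacked cKit, Sca1, CD11b, Ly6g and other lineage markers. The MON cells came from the peripheral blood of adult male C57BL6 mice and were sorted as CD11b+ cells without Ly6g, a gate that can also hold other CD11b+ blood cells. No introduced allele or drug treatment is given for either population. Of the cell lines, which serve below as context and in the gene window fit, G1E is a GATA1-deficient line of erythroid progenitors, and G1E-ER4+E2 is a clone of it that expresses a GATA1-ER fusion, whose activity needs E2 (estradiol). Tissue of origin, sorting gate and run of library numbers all differed between the populations, so their effects cannot be told apart from that of cell type. The replicates were biological, although the sources used here do not say whether they came from different mice. The p-values below measure only the spread between such samples. In the limma fits this spread is drawn in part from all genes or elements tested, not only from the gene or element named.

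Megakaryocytes are the large marrow cells that shed platelets. Their development depends on GATA1 and its partner FOG1 (the product of Zfpm1), on NF-E2, and on the RUNX1, TAL1 and FLI1 factors, which act from open distal elements as well as promoters. Monocytes are circulating phagocytes whose program rests on PU.1 (the product of Spi1), CEBP factors, IRF8 and KLF4. Distal elements usually differ between blood cell types more than promoters do, because promoters of widely used genes are open in nearly every cell.

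The 4 lists differed in length and in how well they repeated. The iMK lists held 172141 and 196339 peaks, and the MON lists held 163770 and 130555 peaks. The mean was 1.25 times higher in iMK, and the exact permutation test gave p = 0.33, which is the smallest value that 2 libraries against 2 can give. Of the peaks, 82.5% and 72.8% were also found in the other library in iMK, against 48.5% and 58.1% in MON. Within iMK the 2 libraries had a Jaccard index of 0.610 (elements held by both over elements held by either). The index between the MON libraries was 0.323, and it ran between 0.292 and 0.326 when an iMK library was paired with a MON library, so the MON libraries were no more like each other than like iMK. The steps between low peak scores gave relative depths of 72.3% and 91.8% of the deepest library of the series in iMK, against 58.2% and 65.2% in MON. These depths assume that scores are reads scaled to the same total in each library, which the sources used here do not state. The highest peak score was 625.2 and 564.9 in iMK, against 98.1 and 91.8 in MON, which is a narrower range of heights in MON. The part of these differences in the results below was not tested.

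Sequences of 7 distal elements are shown first, since the element classes rest on such stretches. Peaks of the 4 lists that overlapped by 1 bp or more were merged into elements. An element was called in a population where both of its libraries had a peak, was shared where it was called in both populations, and was exclusive where it was called in 1 population and had no peak in either library of the other. Distal elements have their centre more than 1 kb from any annotated transcript start. Each line gives 200 bp about the centre on the forward strand of mm10, read from the RefSeq copy of that genome. Capitals mark, on either strand, the letters AGATAA bound by GATA factors, GAGGAAGT bound by PU.1, TTGCNNAA bound by CEBP factors or TGTGGTT bound by RUNX factors. The first 3 are the highest-scoring iMK-exclusive elements with a GATA motif in windows of megakaryocyte genes, and all 3 show the motif as its reverse complement.
Plek, iMK-exclusive, chr11:16969745-16969944: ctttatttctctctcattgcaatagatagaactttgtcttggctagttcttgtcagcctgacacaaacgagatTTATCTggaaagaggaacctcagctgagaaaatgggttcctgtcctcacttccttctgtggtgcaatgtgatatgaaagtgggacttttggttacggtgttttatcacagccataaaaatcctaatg
Erg, iMK-exclusive, chr16:95452505-95452704: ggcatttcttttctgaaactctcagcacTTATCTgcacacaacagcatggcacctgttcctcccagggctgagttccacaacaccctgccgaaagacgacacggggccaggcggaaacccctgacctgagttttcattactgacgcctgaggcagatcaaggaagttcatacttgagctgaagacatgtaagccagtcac
Zfpm1, iMK-exclusive, chr8:122294268-122294467: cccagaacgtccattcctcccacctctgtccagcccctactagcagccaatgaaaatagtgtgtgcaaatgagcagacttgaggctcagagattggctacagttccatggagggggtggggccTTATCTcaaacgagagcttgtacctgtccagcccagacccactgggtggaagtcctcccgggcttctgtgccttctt
Ace, MON-exclusive, chr11:105990184-105990383: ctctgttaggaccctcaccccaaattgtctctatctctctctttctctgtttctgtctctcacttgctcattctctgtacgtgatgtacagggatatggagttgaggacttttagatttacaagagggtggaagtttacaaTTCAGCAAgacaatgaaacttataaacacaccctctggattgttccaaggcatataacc
Cebpa, MON-exclusive, chr7:35106727-35106926: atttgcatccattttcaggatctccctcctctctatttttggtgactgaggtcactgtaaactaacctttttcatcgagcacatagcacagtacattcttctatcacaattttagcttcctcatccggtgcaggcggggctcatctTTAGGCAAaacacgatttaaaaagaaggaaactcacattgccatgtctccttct
Emb, shared, chr13:117211473-117211672: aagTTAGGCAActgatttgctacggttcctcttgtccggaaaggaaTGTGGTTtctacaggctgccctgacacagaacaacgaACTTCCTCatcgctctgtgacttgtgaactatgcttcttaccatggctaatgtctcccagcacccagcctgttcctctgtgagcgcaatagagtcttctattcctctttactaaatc
Nr4a1, shared, chr15:101246324-101246523: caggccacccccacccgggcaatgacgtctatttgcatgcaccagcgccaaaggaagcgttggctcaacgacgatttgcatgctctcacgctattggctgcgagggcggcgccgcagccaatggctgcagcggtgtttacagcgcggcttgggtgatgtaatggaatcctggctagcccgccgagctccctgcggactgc

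The Plek element lies in intergenic DNA 1.36 kb beyond the end of Plek, whose product pleckstrin is a platelet signalling protein. It scored 23.9 and 37.3 in the iMK libraries and had no peak in MON. The Erg element lies in an intron of Erg, an ETS factor of stem cells and megakaryocytes, 134.0 kb downstream of the gene start, and scored 21.0 and 27.0 in iMK. The Zfpm1 element lies in an intron 12.2 kb downstream of the start of Zfpm1 and scored 23.6 and 17.5 in iMK. None of these 3 was private to iMK, since the Plek and Erg elements were also called in CMP, GMP, CFUMK and NEU, and the Zfpm1 element in CMP, GMP, MEP, CFUE, ERY, CFUMK and both cell lines.

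The 2 MON elements were the only 2 candidates outside chromosome 18. Candidates were distal MON-exclusive elements with a PU.1 or CEBP motif in windows of the monocyte lists. Windows of monocyte genes on that chromosome, such as Csf1r and Cd14, were not searched for such elements. Both MON elements hold the CEBP letters. One lies in intergenic DNA 0.319 kb beyond the end of Ace, the gene of angiotensin-converting enzyme, and scored 11.3 and 8.13 in MON. The other lies 12.5 kb upstream of Cebpa, the gene of a CEBP factor, and scored 6.44 and 8.83. Neither was called in any of the other 10 populations. The 2 shared elements were the highest-ranked by score in different genes among 342 candidates, with no motif required, so their greater height follows in part from the choice. The element in an intron of Emb, the gene of the adhesion protein embigin, holds PU.1, CEBP and RUNX letters. It scored 138.5 and 158.2 in iMK, against 33.1 and 31.8 in MON. The element 7.845 kb upstream of Nr4a1, the gene of an orphan nuclear receptor needed by patrolling monocytes, scored 234.1 and 198.7 in iMK, against 44.6 and 34.9 in MON, and holds none of the 4 motifs.

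Most of the elements found in both MON libraries were also found in both iMK libraries, while the reverse did not hold. The 4 lists merged into 277645 elements. Of the 108312 elements called in iMK, 45% were called in MON, and of the 57228 elements called in MON, 85.1% were called in iMK. Together 48700 elements were shared, 41511 were iMK-exclusive and 5857 were MON-exclusive. A further 18101 elements were called in iMK with a peak in 1 MON library, and 2671 were called in MON with a peak in 1 iMK library. The other 160805 elements were called in neither population. The unequal shares rest on the demand for 2 libraries in MON. With MON replicate 2 alone, 52.0% of the iMK elements were called in MON and 53.8% of the MON elements in iMK, and with MON replicate 1 alone these shares were 54.5% and 45.5%. With a peak in either library counted as a call, 43.5% of the iMK elements were called in MON and 43.6% of the MON elements in iMK.

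**Figure D1:**
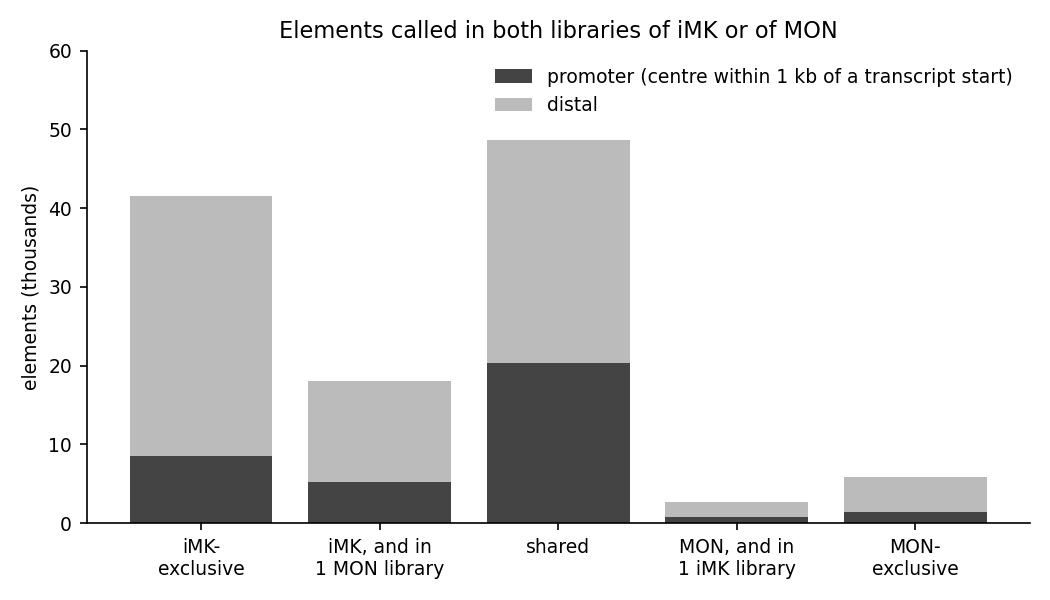
Elements called in both libraries of iMK or of MON, in units of 1000 (vertical axis), by class along the horizontal axis, with promoter elements in dark grey below distal ones in light grey. The bar of the 41511 iMK-exclusive elements stands far above that of the 5857 MON-exclusive elements, and the shared class holds the most promoters.

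Promoters were shared more than distal elements. Elements with a centre within 1 kb of a transcript start made up 20.6% of the iMK-exclusive class (95% exact binomial interval 20.2% to 21.0%), 23.4% of the MON-exclusive class (22.3% to 24.5%) and 41.8% of the shared class (41.4% to 42.3%). These intervals, and those below, cover counting error only. The MON-exclusive share was 13.7% without MON replicate 1 and 13.4% without MON replicate 2, against 22.8% and 22.5% in the iMK-exclusive class, so the order of the exclusive classes turned. With a peak in either library as a call, 17.0% of the iMK-exclusive class and 12.3% of the MON-exclusive class were promoters. Of the promoter elements called in iMK, 59.8% were called in MON, and of its distal elements 38.2% were. Of the promoter elements called in MON, 90.3% were called in iMK, and of its distal elements 81.7% were. Per library, 31.5% and 28.7% of peaks in iMK lay at promoters, against 29.8% and 32.2% in MON, and the ranges overlapped (exact permutation p = 0.667).

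Distal elements of all classes lay mostly in introns and intergenic DNA. Of the distal iMK-exclusive elements, 52.4% were intronic, 42.4% intergenic and 5.27% exonic. The distal MON-exclusive elements were 47.2% intronic, 46.3% intergenic and 6.55% exonic. The median distance to the nearest transcript start was 8331 bp in the iMK-exclusive class, 5556 bp in the MON-exclusive class and 2283 bp in the shared class.

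Exclusive elements were low. Their median score was 5.31 and 5.68 in the iMK libraries for the iMK-exclusive class, where shared elements had medians of 22.3 and 23.3. In MON the medians were 4.24 and 3.92 for the MON-exclusive class and 9.42 and 8.55 for shared elements. With equal numbers of peaks, taking the 130555 highest of each list, the classes held 27799 iMK-exclusive, 5672 MON-exclusive and 46080 shared elements. The exclusive counts rest on the demand for 2 libraries: without iMK replicate 1 or replicate 2 there were 82180 or 65114 iMK-exclusive elements, and without MON replicate 1 or replicate 2 there were 43235 or 64268 MON-exclusive elements.

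Most of the iMK-exclusive elements were also called in GMP, CFUMK and CMP, while few of the MON-exclusive elements were called in any other population. Of the iMK-exclusive elements, 66.4% were called in GMP (granulocyte monocyte progenitors), 65.5% in CFUMK (the megakaryocyte progenitors that precede iMK) and 53.4% in CMP (common myeloid progenitors). The share was 25.3% in MEP (megakaryocyte erythroid progenitors), 10.7% in CFUE and 11.0% in ERY (the erythroid stages), and 8.86% in NEU (blood neutrophils). The share of the MON-exclusive elements called in another population was at most 10.8%, in CMP, and was 9.49% in GMP and 7.24% in NEU. Shared elements were called in 93.8% of cases in GMP, 92.6% in CFUMK and 70.4% in NEU. The lists differed in length, with 230877 and 172621 peaks in GMP, against 107690 and 97760 in ERY and 108650 and 84341 in NEU. The part of list length in these shares was not tested.

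**Figure D2:**
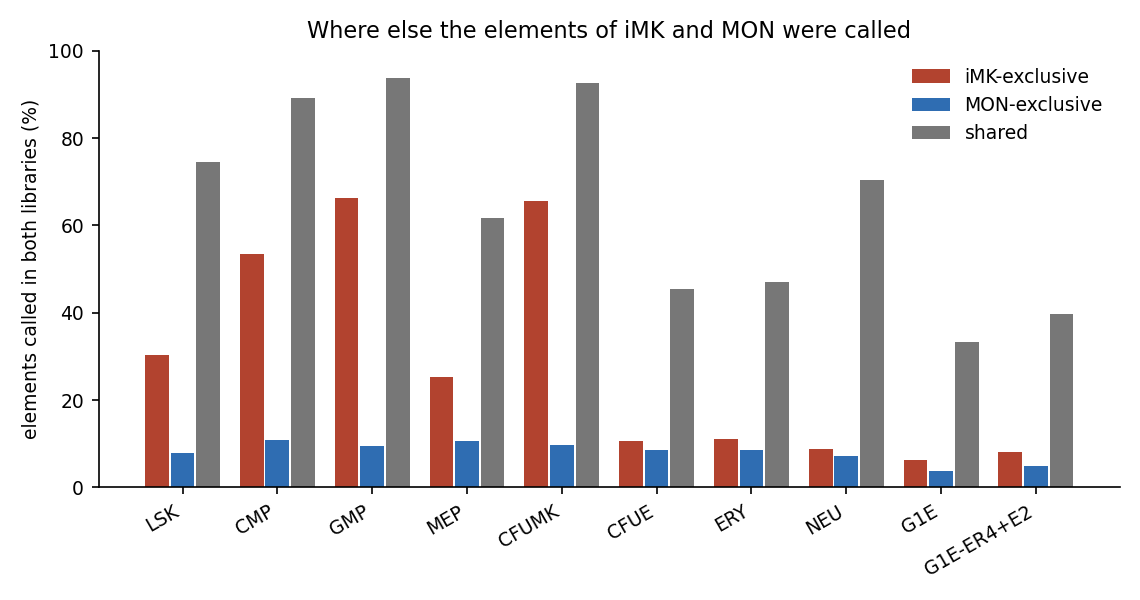
Share of iMK-exclusive, MON-exclusive and shared elements (percent, vertical axis) that was called in both libraries of each of the other 10 populations. The iMK-exclusive bars reach 66.4% in GMP and 65.5% in CFUMK, against 8.86% in NEU, while the MON-exclusive bars stay at or below 10.8%.

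Elements found nowhere else were a minority of the iMK class and the majority of the MON class. No call in the other 8 primary populations was made at 17.8% of the iMK-exclusive elements and at 69.3% of the MON-exclusive elements. Counting a peak in either library of another population, these shares were 5.90% and 43.6%. Among promoter elements the shares without a call were 11.7% in the iMK-exclusive class and 44.6% in the MON-exclusive class, and among distal elements they were 19.3% and 76.9%. Called in all of the other 8 primary populations were 0.653% of the iMK-exclusive elements, 0.0512% of the MON-exclusive elements and 34.9% of the shared elements.

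The motifs of the myeloid factors PU.1 and CEBP marked the iMK-exclusive elements more often than the MON-exclusive ones. This was not particular to them, since the GATA, RUNX, NF-E2, IRF and CTCF motifs given below were also rarer in distal MON-exclusive elements. The KLF letters GGGNGTGG (8.28% in iMK-exclusive, 8.27% in MON-exclusive) and the E-box letters CAGCTG (12.9% and 13.5%) were nearly equal. Motifs were searched on both strands of the 200 bp about each centre, and the same windows moved by 10 kb gave the level at nearby DNA. The PU.1 letters stood in 9.98% of distal iMK-exclusive elements (9.66% to 10.3%), in 3.25% of distal MON-exclusive elements (2.75% to 3.82%) and in 10.4% of distal shared elements. The moved windows held them in 1.30%, 1.20% and 1.40%, and all distal elements of the 4 lists in 5.70%. The CEBP letters stood in 15.4%, 7.38% and 13% of the same classes, against 8.11%, 9.12% and 8.0% in moved windows and 9.75% in all distal elements. A match describes letters and is not a bound site.

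**Figure D3:**
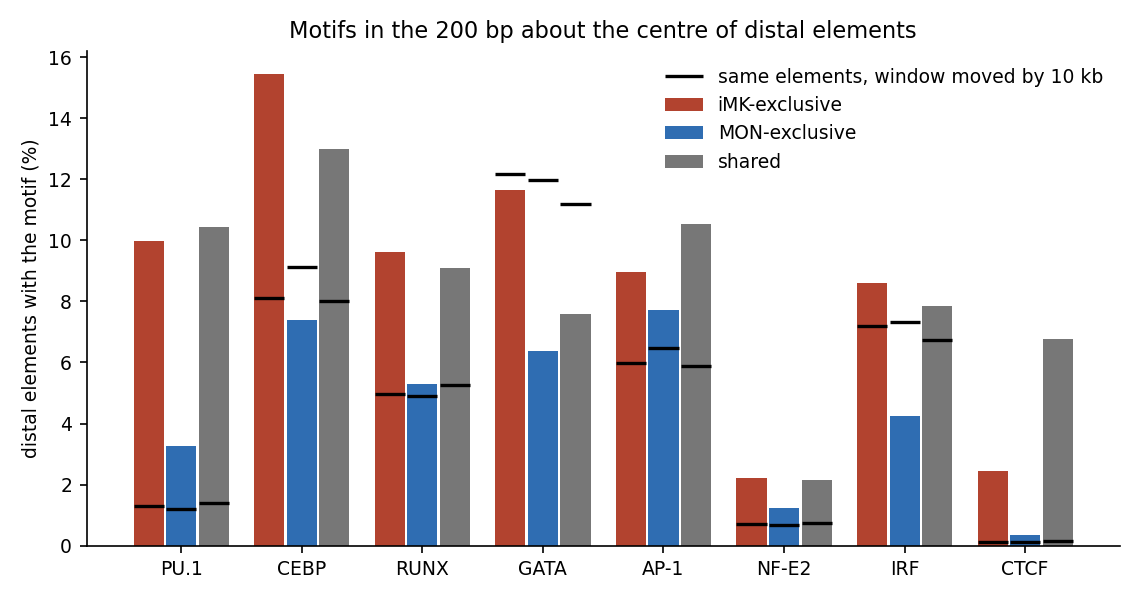
Share of distal elements (percent, vertical axis) that hold each of 8 motifs in the 200 bp about their centre, for iMK-exclusive, MON-exclusive and shared elements, with black lines for the same windows moved by 10 kb. PU.1 letters stood in 9.98%, 3.25% and 10.4%. The GATA bars lie below their black lines in all 3 classes, and the iMK-exclusive bar is the highest of them.

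GATA letters were not above the level of nearby DNA in any class, but among distal elements they were most frequent in the iMK-exclusive class. All distal elements together also lay below their moved windows, which held the letters in 12.5%. The part of base composition in this was not tested. They stood in 11.6% of distal iMK-exclusive elements, 6.38% of distal MON-exclusive elements and 7.57% of distal shared elements, against 12.2%, 12% and 11.2% in moved windows and 9.14% in all distal elements. Within the iMK-exclusive class they were at 14.1% in distal elements not called in GMP and at 10.4% in those called there, while PU.1 letters were at 7.44% and 11.3%. The RUNX letters stood in 9.61%, 5.31% and 9.08% of the 3 classes, against 4.98%, 4.90% and 5.25% in moved windows. NF-E2 letters (GCTGANTCA, which include the AP-1 letters TGANTCA) were at 2.20%, 1.23% and 2.14%, and the IRF letters GAAANNGAA at 8.62%, 4.24% and 7.86%.

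The CTCF motif at distal elements and the ETS letters at promoters were most frequent in the shared class. The CTCF motif, bound by the insulator protein of that name, stood in 2.45% of distal iMK-exclusive elements, 0.334% of distal MON-exclusive elements and 6.76% of distal shared elements, against at most 0.152% in moved windows. At promoters the ETS letters CCGGAAGT stood in 0.854% of iMK-exclusive, 0.292% of MON-exclusive and 4.47% of shared elements. With the MON-exclusive class taken from a single library, PU.1 letters stood in 1.98% of its distal elements without MON replicate 1 and in 1.96% without MON replicate 2.

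Promoter peaks did not set the populations apart by the genes of their own lineages. A promoter peak lay at most 500 bp from an annotated start of the gene, and a promoter was called in a population where both libraries had one. Of 51 megakaryocyte genes, 37 had a called promoter in iMK and 27 in MON. Of 51 monocyte genes, 49 had a called promoter in iMK and 43 in MON. Over all 21911 protein-coding genes, 60.7% had a called promoter in iMK and 52.5% in MON. The promoters of Itga2b and Itgb3, which encode the CD41 and CD61 proteins used to sort iMK, and of Itgam, which encodes the CD11b used to sort MON, had a peak in all 4 libraries. The monocyte genes thus had called promoters more often than the megakaryocyte genes in the iMK libraries as well, so the populations are called here by their library titles.

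**Figure D4:**
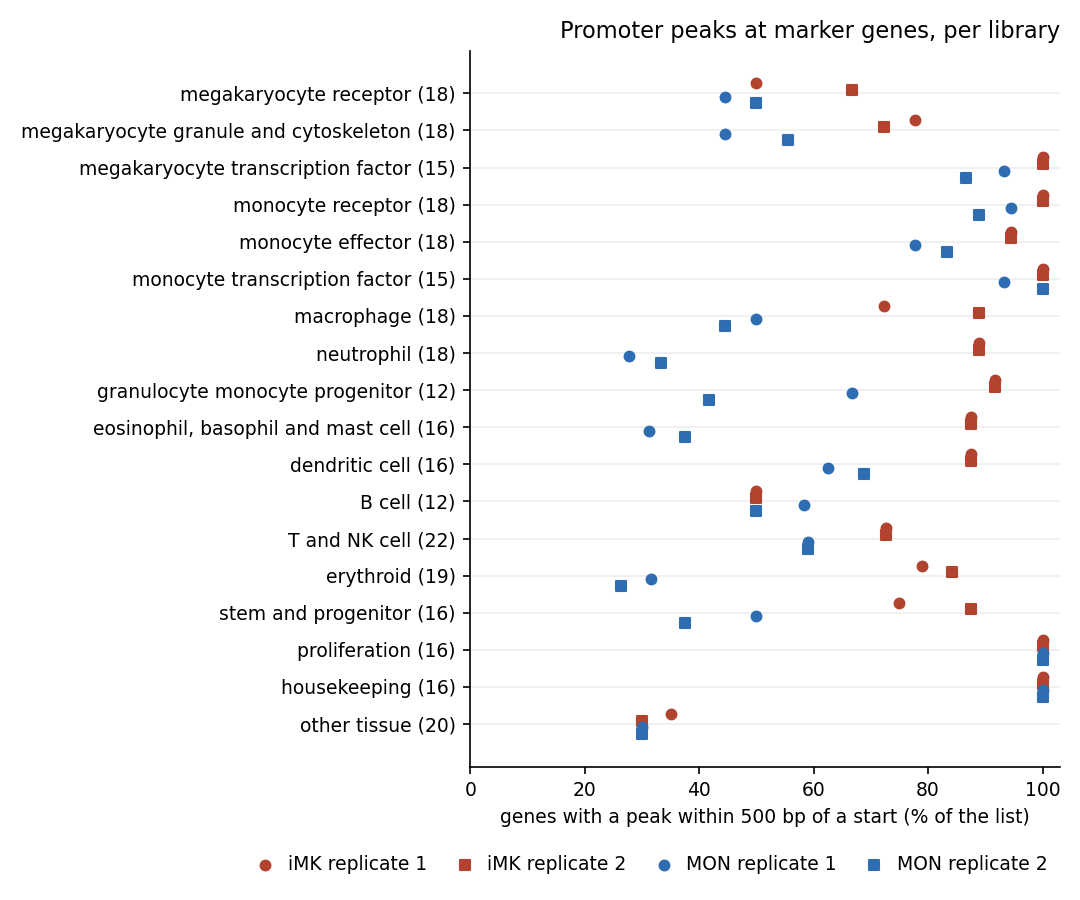
Share of the genes of each marker list (percent, horizontal axis; number of genes in brackets) with a peak within 500 bp of a start, for iMK replicates 1 and 2 and MON replicates 1 and 2. The neutrophil list lies at 16 of 18 genes in both iMK libraries, against 5 and 6 in the MON libraries, while the monocyte effector list, the lowest of the 3 monocyte lists in MON, lies at 17 of 18 genes in both iMK libraries, against 14 and 15 in the MON libraries.

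Promoters called in iMK and without a peak in either MON library were 4.71% of all protein-coding genes, and the reverse was 0.361%. Among the megakaryocyte genes, 4 of 51 were of the first kind and 0 of the second. They were Gata1, the master factor of the lineage, Gucy1a1 and Gucy1b1, the subunits of the nitric oxide receptor of platelets, and Serpine2, a granule protease inhibitor. Among the 51 monocyte genes, 2 were of the first kind, Ccr2 (the chemokine receptor of classical monocytes) and F13a1 (coagulation factor XIII), and 0 were of the second. Both are markers of blood monocytes, and the factor XIII subunit is carried by platelets as well.

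Genes of granulocytes, of red cells and of macrophages carried promoter peaks in iMK far more often than in MON. Neutrophil genes had called promoters at 16 of 18 in iMK and 4 of 18 in MON, and 9 had a promoter in iMK alone. These 9 were Cebpe, Cxcr2, Lcn2, Ltf, Ly6g, Mmp9, Ngp, Padi4 and S100a9, which encode a granulocyte factor, a chemokine receptor, granule proteins and others of this lineage. The limit of 500 bp matters here, since within 1 kb the list was called at 16 of 18 in iMK and 7 of 18 in MON, and shared elements lie 720 bp from a start of Cebpe and 999 bp from one of Mmp9. For comparison, the same list within 500 bp was called at 10 of 18 in NEU, 13 of 18 in GMP and 11 of 18 in CFUMK. Genes of eosinophils, basophils and mast cells were called at 13 of 16 in iMK and 3 of 16 in MON, and within 1 kb at 13 and 6 of 16. Erythroid genes were called at 15 of 19 in iMK and 4 of 19 in MON, and 8 of them in iMK alone, which included the beta-globin genes Hbb-bs and Hbb-bt. Their near-identical sequence leaves the placing of short reads between them uncertain.

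Macrophage genes were called at 13 of 18 in iMK and 7 of 18 in MON, with Mrc1 (the mannose receptor), Slc40a1 (the iron exporter ferroportin), Vcam1 (an adhesion molecule) and C1qb (a complement subunit) in iMK alone. Genes of T and NK cells were called at 15 of 22 in iMK and 13 of 22 in MON. B cell genes were called at 6 of 12 in each population. The promoter of Ms4a1, which encodes the B cell antigen CD20, had peaks in both MON libraries and none in iMK, and that of Pax5, the gene of the factor that sets B cell identity, had peaks in both iMK libraries and none in MON within 500 bp. A shared Pax5 element at 583 bp scored 10.2 and 8.17 in iMK, against 6.75 and 8.97 in MON, and was lower in iMK only relative to the library medians (-1.11, limma adjusted p = 0.0015). Housekeeping and proliferation genes were called at 16 of 16 in both. How far cells of other types contributed to these libraries was not tested.

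Whole gene windows were then compared, each being a gene body and 20 kb on each side, so that neighbouring genes share peaks. The number of peaks in a window was expressed per 100000 called peaks, on the log2 scale with a prior of 1 peak, and tested with limma over all 24 libraries. Of 17018 genes tested, 637 windows held more peaks in iMK (3.74%) and 531 held fewer (3.12%) at an adjusted p of 0.05. In all of these windows both iMK libraries lay on the same side of both MON libraries. The median difference over all genes was -0.09. Scaling to the median gene gave 837 and 391, and equal peak numbers gave 661 and 349, so that the higher share of the calls was 54.5% as fitted and 68.2% and 65.4% under these scalings. Fewer windows passed with 1 library less, at 217 higher and 104 lower without iMK replicate 1, 259 and 130 without iMK replicate 2, 349 and 196 without MON replicate 1, and 430 and 166 without MON replicate 2.

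The windows with the largest positive difference lay mainly on the X chromosome. Reps2, which encodes an endocytosis adaptor, held 28 and 30 peaks in iMK and 0 and 0 in MON (log2 difference 4.58 ± 0.40 SE, limma adjusted p = 1.27e-07). Its window held 16 iMK-exclusive elements and 0 shared ones. Mid1, the gene of a microtubule-associated ubiquitin ligase, held 20 and 41 peaks in iMK, against 1 and 0 in MON (4.06 ± 0.44, limma adjusted p = 1.38e-06). Fgf13, an intracellular member of the FGF family, held 13 and 22 peaks in iMK and 0 and 0 in MON (3.84 ± 0.42, limma adjusted p = 9.38e-08). The groups did not overlap at any of these genes. Over all 24 libraries the mean was 19.6 peaks at Reps2, 14.1 at Mid1 and 7.25 at Fgf13, so these windows were not open in iMK alone. A difference against 0 peaks depends on the prior and is no bound.

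**Figure D5:**
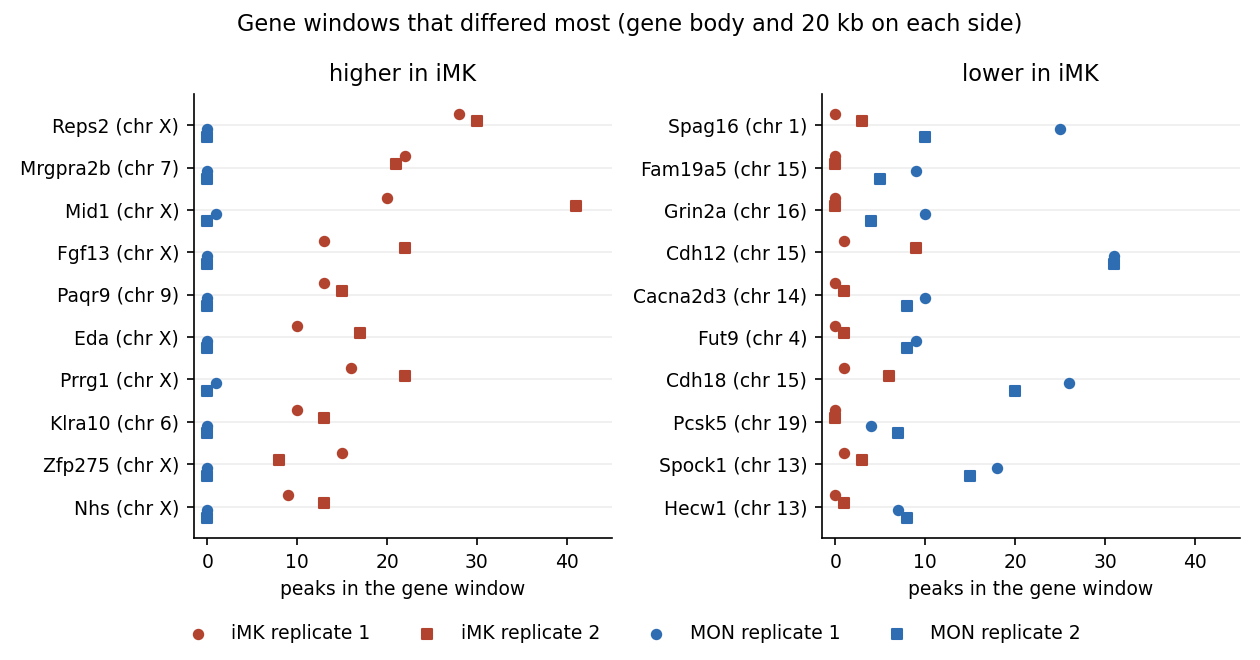
Number of peaks in the gene window (horizontal axis) for iMK replicates 1 and 2 and MON replicates 1 and 2, at the 10 genes with the largest positive difference (left) and the 10 with the largest negative one (right). At the genes on the left the MON libraries hold 0 or 1 peak, and 7 of the 10 are on the X chromosome.

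Eda, Prrg1, Zfp275 and Nhs complete the 7 X-linked genes among the 10, with 8 to 22 peaks per iMK library, against 0 or 1 per MON library. Eda encodes ectodysplasin, a ligand of the TNF family. The other 3 were Paqr9 on chromosome 9 (13 and 15 peaks in iMK, 0 and 0 in MON, 3.57 ± 0.31, limma adjusted p = 3.76e-10), Mrgpra2b on chromosome 7 and Klra10 on chromosome 6. Mrgpra2b and Klra10 belong to families of near-identical genes, so their peaks are uncertain. X-linked windows as a whole were called higher in 92 of 464 tested genes (19.8%), against 544 of 16550 autosomal genes (3.29%), and lower in 2 and 529. The X chromosome held 2.45% and 2.59% of the peaks in the iMK libraries, against 1.48% and 1.57% in the MON libraries, although both populations came from male mice. Over the other 20 libraries this share ran between 1.76% and 3.02%, so the MON libraries had the lowest values of the series. The iMK shares lay within that range. LSK replicate 2 and the NEU libraries, whose library numbers adjoin those of MON, were at 2.01%, 1.97% and 1.76%, and LSK replicate 1 at 2.62%. With other numbers, CFUE replicate 1 was at 2.05%. LSK replicate 2 also had a highest score of only 95.8, but the NEU libraries had 470.4 and 384.1. The part of the library run in the X shares was not tested.

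The 10 windows with the largest negative difference were those of long genes, of 191 to 1140 kb, and few of their MON peaks repeated in position. Spag16, a ciliary gene on chromosome 1, held 0 and 3 peaks in iMK, against 25 and 10 in MON (-3.41 ± 0.71, limma adjusted p = 0.0076). Cdh12, a neural cadherin gene, held 1 and 9 peaks in iMK, against 31 and 31 in MON (-3.17 ± 0.65, limma adjusted p = 0.00456). Grin2a, which encodes a glutamate receptor subunit, held 0 and 0 peaks in iMK, against 10 and 4 in MON (-3.22 ± 0.80, limma adjusted p = 0.0165). The iMK libraries lay below both MON libraries at each gene.

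Fam19a5, Cacna2d3, Fut9, Cdh18, Pcsk5, Spock1 and Hecw1 complete the 10, with 0 to 6 peaks per iMK library and 4 to 26 per MON library. Windows were tested at a mean of at least 3 peaks over all 24 libraries. Some stood close to this limit, with 3.00 at Fam19a5 and Fut9, 3.17 at Grin2a and 3.21 at Cacna2d3, and 3.50 at Klra10 among the higher ones. Peaks of the population where they were high thus counted towards their entry, and with no filter all 10 lower windows kept their call. Of the peaks in these 10 windows, 6 of 149 in MON replicate 1 overlapped a peak of replicate 2, and 9 of 116 the reverse. In the 10 windows highest in iMK, 126 of 156 peaks of iMK replicate 1 and 148 of 202 peaks of replicate 2 overlapped a peak of the other library. Over all 531 lower windows, 54.5% and 63.1% of MON peaks did so. This was below the 60.1% and 70.2% of the windows not called, and above the 48.5% and 58.1% of the whole MON lists. MON-exclusive elements stood in 342 of the 531 lower windows, beside 4235 of the 15850 windows not called. The iMK-exclusive elements stood in 634 of the 637 higher windows, beside 12429 of the 15850 not called. These elements come from the same peaks that the fit counted, so they are no separate support for the calls. The calls at Spag16, Grin2a, Cdh12, Cdh18, Pcsk5 and Spock1 were each lost in 1 or more fits that left out a library.

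Among the marker lists, the windows of 7 of 50 tested megakaryocyte genes held more peaks in iMK and 1 held fewer. Of 51 monocyte genes 0 passed in either direction. Over all genes tested, 3.74% were higher and 3.12% lower, shares that leave few calls in a list of 51, so 0 is close to them. The median log2 difference was 0.15 over the megakaryocyte genes and -0.18 over the monocyte genes, beside -0.09 over all genes tested. Gata1, on the X chromosome, held 7 and 7 peaks in iMK, against 0 and 0 in MON (2.67 ± 0.38, limma adjusted p = 9.2e-06). Mmrn1, which encodes the alpha-granule protein multimerin, held 8 and 7 peaks in iMK and 1 and 0 in MON (2.25 ± 0.33, limma adjusted p = 1.4e-05). Gp9, a subunit of the von Willebrand factor receptor, held 9 and 10 peaks in iMK and 2 and 1 in MON (1.77 ± 0.30, limma adjusted p = 0.00016). In each of them the iMK libraries lay above both MON libraries.

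The other 4 that rose were Gucy1a1 (5 and 5 peaks in iMK, 0 and 1 in MON), Serpine2 (19 and 20 in iMK, 5 and 4 in MON), Rab27b (15 and 15 in iMK, 8 and 4 in MON), whose product moves granules to the membrane, and Erg (53 and 50 in iMK, 24 and 17 in MON). Erg held 21 iMK-exclusive elements and 0 MON-exclusive ones. Ikzf5, a zinc finger gene linked to platelet number in humans, fell, with 6 and 6 peaks in iMK, against 12 and 12 in MON (-1.22 ± 0.30, limma adjusted p = 0.0076). The well-known platelet genes Itga2b, Pf4 and Vwf did not pass. Itga2b held 11 and 8 peaks in iMK, against 7 and 7 in MON, Pf4 held 11 and 11, against 5 and 10, and Vwf held 21 and 29, against 27 and 26.

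The monocyte windows, of which 0 of 51 passed, leaned below 0 more than above it. Of the monocyte genes tested, 13 of 18 receptor genes, 10 of 18 effector genes and 13 of 15 transcription factor genes had a negative difference, beside 9722 of the 17018 genes tested. Spi1 held 14 and 14 peaks in iMK and 14 and 11 in MON (-0.17 ± 0.28). Csf1r, the receptor that monocytes depend on, held 18 and 16 peaks in iMK and 8 and 13 in MON (0.35 ± 0.39). Ccr2 held 10 and 14 in iMK and 13 and 10 in MON, and Cx3cr1, the fractalkine receptor, 45 and 46 in iMK and 47 and 34 in MON. Per 100000 peaks the libraries of the populations overlapped at Csf1r and Cx3cr1 and differed by less than the SE at Spi1 and Ccr2. The largest negative differences in these lists were those of Adgre4 (8 and 8 in iMK, 16 and 14 in MON, -1.16 ± 0.44, limma adjusted p = 0.103) and Klf2 (8 and 6 in iMK, 15 and 10 in MON, -1.07 ± 0.43, limma adjusted p = 0.122). In total the windows of the monocyte lists held 132 iMK-exclusive, 27 MON-exclusive and 307 shared elements, and those of the megakaryocyte lists 198, 21 and 299.

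Among the lists of progenitors, granulocytes and red cells, 2 to 5 windows per list rose in iMK, and most members did not pass. Of all genes tested, 3.74% were higher and 3.12% lower. Of 16 stem and progenitor genes 5 were higher and 0 lower, with a median of 0.44. They were Kit (27 and 35 peaks in iMK, 8 and 4 in MON, 1.91 ± 0.28, limma adjusted p = 1.6e-05), which encodes the stem cell factor receptor that the iMK sort selected against on the surface, Gata2 (20 and 17 in iMK, 3 and 4 in MON), Mecom, Myb and Mycn. The Kit window held 15 iMK-exclusive elements and 1 shared one. Among erythroid genes 3 of 19 were higher and 0 lower, with a median of 0.59, namely Hbb-bt (18 and 17 in iMK, 0 and 2 in MON), Hbb-bs and Ank1, the gene of erythrocyte ankyrin.

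Among neutrophil genes 2 of 18 were higher and 0 lower, with a median of 0.47, beside 3.74% higher of all genes tested. These were Retnlg (15 and 11 peaks in iMK, 1 and 3 in MON) and Mmp9 (15 and 15 in iMK, 4 and 5 in MON), a gelatinase of neutrophil granules. Of 16 genes of eosinophils, basophils and mast cells 3 were higher, namely Gata2, Il4 and Mcpt8, a basophil protease gene, and of 16 tested macrophage genes Slc40a1 (9 and 11 in iMK, 0 and 0 in MON), Vcam1 and Cd163 were higher. Of 12 B cell genes Pax5 (6 and 8 in iMK, 26 and 10 in MON) and Ms4a1 (4 and 3 in iMK, 11 and 9 in MON) were lower, beside 3.12% of all genes tested. Of 18 genes tested of T and NK cells, and of 15 of dendritic cells, 0 passed in either direction. The part of cells of other types in these differences was not tested.

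Where an element was shared, its height could be compared. The highest score of each library in an element was taken on the log2 scale and set relative to the library's median over the 48700 shared elements. At an adjusted p of 0.05 by limma 12882 elements were relatively higher in iMK (26.5%) and 11733 lower (24.1%). Promoter elements leaned to iMK, with 7885 of 20378 higher and 2958 lower, and distal elements leaned to MON, with 4997 of 28322 higher and 8775 lower. The log2 scores had SDs of 1.49 and 1.41 in iMK and 1.03 and 1.04 in MON. Quantile normalization, which sets these spreads equal, gave 5161 higher and 3300 lower at promoters and 4519 and 6266 at distal elements, which keeps both directions. Without centring, 37642 elements were higher and 791 lower, and 8124 of the 11733 elements called lower changed sign, 1266 of them to a call in the other direction.

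At promoters the largest relative heights in iMK were at Slco4c1, a transporter gene, with scores of 183.4 and 129.4 in iMK, against 5.65 and 3.64 in MON (3.74 ± 0.25, limma adjusted p = 4.3e-48), and Olfml2b, with 104.8 and 77.4 in iMK, against 3.30 and 3.50 in MON. Slc2a3, the gene of a glucose transporter of platelets and leukocytes, scored 186.7 and 148.5 in iMK, against 6.28 and 8.27 in MON. Klf5, a Krüppel-like factor gene, scored 335.2 and 267.4 in iMK, against 13.2 and 12.8 in MON. Ccno and Tmem9b complete the 6. All 6 kept their direction and call in each of the other fits of the heights that held them. The size of such p-values depends on the scaling. With quantile normalization Slco4c1 was at 3.68 (limma adjusted p = 3.5e-10).

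The largest relative heights in MON were at the promoter of Hes1, a Notch target gene, with scores of 5.44 and 5.28 in iMK, against 24.3 and 26.9 in MON (-3.60 ± 0.30, limma adjusted p = 1.33e-30). Arpin, which encodes an inhibitor of actin branching, scored 5.69 and 5.68 in iMK, against 26.4 and 18.4 in MON. H2-Ob, an MHC class II chaperone gene of B cells, scored 4.30 and 3.79 in iMK, against 12.7 and 9.95 in MON, and Ikzf3, the gene of the lymphoid factor Aiolos, 6.70 and 5.18 in iMK, against 15.2 and 14.4 in MON. Nxpe4 and Phldb1 complete the 6. The raw scores of MON exceeded those of iMK at each of these elements, although MON scores were lower at most shared elements.

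Of all shared promoter elements, 38.7% were relatively higher in iMK and 14.5% lower. Among the monocyte genes 16 of 76 elements were relatively higher in iMK and 19 lower, and among the megakaryocyte genes 22 of 61 were higher and 11 lower. With quantile normalization these were 12 and 23 among the monocyte genes and 15 and 6 among the megakaryocyte genes. P2ry1, an ADP receptor of platelets, scored 95 and 105.7 in iMK, against 6.28 and 4.90 in MON (2.83 ± 0.25, limma adjusted p = 1.75e-26). Tal1 scored 51.6 and 58.4 in iMK, against 7.22 and 7.43 in MON. Of the monocyte genes, Pou2f2, the gene of a lymphoid and myeloid octamer factor, had an element with 9.74 and 10.5 in iMK, against 24.8 and 23.5 in MON (-2.60 ± 0.28, limma adjusted p = 1.3e-18). Ace scored 7.97 and 7.67 in iMK, against 17.1 and 14.7 in MON, and Treml4, a receptor gene of nonclassical monocytes, 5.82 and 8.17 in iMK, against 12.7 and 12.9 in MON.

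Motifs followed the heights of distal shared elements. CEBP letters stood in 18.2% of the distal shared elements that were relatively higher in iMK, 10.5% of those lower and 12.7% of the rest. PU.1 letters stood in 13.5%, 8.83% and 10.4%, NF-E2 letters in 2.96%, 1.89% and 2.01%, and the CTCF motif in 2.44%, 7.94% and 7.53%. GATA letters varied less, at 8.32%, 7.30% and 7.48%. With quantile normalization the CEBP shares were 17.9%, 11.4% and 12.3%.

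Some gene windows gathered many exclusive elements. The 5 with the most iMK-exclusive elements were Fgfr2 with 75, Pde4d with 55, Sox5 with 41, and Sox6 and Wwox with 34 each. Fgfr2 is annotated over 2961 kb, so its count covers many neighbours. It held 288 and 299 peaks in iMK, against 275 and 179 in MON, and did not pass (0.07 ± 0.12). Sox6, which encodes a factor of erythroid and megakaryocyte development, held 89 and 100 peaks in iMK, against 14 and 17 in MON (2.21 ± 0.43, limma adjusted p = 0.00688). The most MON-exclusive elements were in the windows of Fgfr2 with 10, Dnah12 with 8, Ankrd44 and Cmss1 with 7 each, and Anks1b with 6, and none of these 5 passed the test of the window counts.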

How the data were processed

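ATAC-seq peak lists of the 2 iMK and 2 MON libraries were analysed, with the other 20 libraries in the gene window fit and as context. Per the study and the labels, the authors trimmed reads, aligned them to mm10 with Bowtie, removed mitochondrial, unplaced and unmapped reads, and called peaks per library with HOMER. Each deposited peak carries a score made by the authors, whose low values are mostly whole multiples of 1 step per library. This step gave the relative depth, on the assumption of scores scaled to the same total. A second, whole-number score was not used. Elements, gene windows and promoters were placed with GENCODE vM21. Python 3.11.15, R 4.3.3 and limma 3.58.1 were used, with Benjamini-Hochberg adjustment over all genes or elements. Gene windows were tested where the mean over all 24 libraries, iMK and MON included, was at least 3 peaks. Single values had exact two-sided permutation tests, and the fits were first run on simulated data. The members and gene lists were chosen with earlier results of these data known.

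Gene windows named were the 10 with the largest difference in each direction among those past the threshold whose libraries did not overlap, without predicted or clone symbols and overlapping windows. Shared elements named were the 6 with the largest difference in each direction at promoters, and exclusive elements were named by the 5 windows with the most. List genes were named besides. Alternatives covered equal peak numbers, overlap, score and promoter limits, window size, prior, filter, scaling, the libraries fitted, and each library left out. Of 20 erythroid genes, Ahsp was not found in the annotation.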

Additional observations from a re-analysis of the deposited data

How the results depend on the processing

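The 10 gene windows and 6 promoter heights with the largest difference in each direction kept their direction under the alternatives run. The windows of list genes and those with the most exclusive elements were not followed gene by gene. The scores of the Pax5 element lean to iMK without centring. Of the calls of height over all shared elements, 8124 of 11733 lower ones changed sign without centring, 1266 of them to a call, and with quantile normalization 736 of 12882 higher ones did, 62 of them to a call, and 148 lower ones, 0 of them to a call. In the order shared, iMK-exclusive and MON-exclusive, the elements numbered 46080, 27799 and 5672 with equal peak numbers, 49075, 48617 and 6584 with an overlap of 50%, 36606, 20449 and 3401 above the median score, 48700, 59612 and 8528 when a peak in 1 library of the other population was allowed, and 77219, 100391 and 100035 when 1 library sufficed. Leaving out each library gave 49754 to 59988, 50165 to 82180 and 6849 to 64268. The promoter shares were 43.0%, 23.4% and 24.8% with equal numbers, 42.7%, 24% and 35.1% with the 50% overlap, 47.0%, 28.4% and 29.8% above the median score, 23.0% and 25.7% of the exclusive classes in the looser definition, 36.6%, 17.0% and 12.3% with 1 library, 35.4%, 15.3% and 14.6% within 500 bp, and 48.5%, 26.7% and 34.2% within 2 kb. Leaving out each library gave 39.9% to 42.0%, 17.5% to 22.8% and 13.4% to 26.4%. PU.1 shares of distal iMK-exclusive elements were 10.6% with equal numbers, 9.15% in 150 bp, 10.9% in 300 bp and 8.06% to 9.94% leaving out each library, and CEBP shares 17.2%, 12.7%, 19.7% and 13% to 14.9%. In MON-exclusive elements PU.1 was 3.94% with equal numbers, 4.08% in 300 bp and 1.96% to 4.24% leaving out each library, and CEBP 5.64% in 150 bp, 10.8% in 300 bp and 6.24% to 7.87%. With a peak in either library of the other population, GMP, CFUMK and NEU held 81.7%, 77.8% and 25.4% of the iMK-exclusive elements, and NEU and GMP 20.3% and 20.8% of the MON-exclusive ones, with 43.6% in none of the 8. Gene windows called higher and lower numbered 1038 and 1022 in a fit of the 4 libraries alone and 217 to 430 and 104 to 196 leaving out each library. Lower calls numbered 349 with equal peak numbers and 1122 with no filter, where 853 were higher. A fit on peaks found in both libraries, chosen after seeing the data, gave 3206 and 8507, and its construction makes replicates alike. Autosomal genes alone, chosen likewise, gave 544 and 529. Heights gave 37642 and 791 without centring and 7414 and 5444 among the elements above the median height. Of the 18 neutrophil promoters 7 were called in MON within 1 kb. Of the named windows, the higher ones kept their call in 139 of 139 alternative fits, and the lower ones kept it in 119 and lost it in 19. No paired analysis was possible because the labels give the libraries no shared replicate numbers. Exclusive elements scored below the median of their own lists, and the relative depth read from the score steps was lower in MON. The part of depth in the size of the exclusive classes was not tested.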
